A study of Homo sapiens with 8 samples.

Results

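The lung and foregut lineage transcription factors examined here were 8 genes taken by symbol from the 59050 genes counted in every library. They were the homeobox gene NKX2-1, the forkhead genes FOXA1, FOXA2 and FOXA3, the zinc finger gene GATA6, the HMG-box genes SOX2 and SOX9, and TP63, which encodes p63. RNA was sequenced from 8 xenograft tumours of H2122, an established human lung adenocarcinoma cell line. In 4 tumours the cells were parental (wild type) and in 4 they carried a SMARCA4 knockout, and all 8 had been given vehicle. The host animal, the age of the hosts, and whether the knockout line was 1 clone or a pool are not given in the sources used here. Nothing in the labels says that the numbered tumours of a group came from separate animals or cultures, so the p-values measure the spread between these samples.

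SMARCA4, the gene targeted, encodes a motor subunit by which SWI/SNF complexes move nucleosomes. It measured 220.7 ± 16.0 CPM (mean ± SD, n = 4) in parental and 27.3 ± 3.90 CPM (n = 4) in knockout tumours, where CPM is the count scaled to the library size after TMM normalization, per 1000000 counts. The log2 fold change of SMARCA4 was -3.02 (SE 0.117, edgeR quasi-likelihood test, adjusted p = 1.45e-07). Libraries held 19785922 to 23191698 gene counts in the parental group and 20662882 to 21981123 in the knockout group. Among 16219 genes tested, 27% were called changed, meaning an edgeR p-value under 0.05 after Benjamini-Hochberg adjustment over all of them. Higher calls in the knockout made up 13% of the tested genes and lower calls 14.1%, and the CPM ranges of the groups did not overlap for 29.3%.

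In the embryo, the endoderm of the anterior gut tube gives rise to the trachea and lung ventrally and to the oesophagus dorsally. NKX2-1 marks the ventral side and later maintains alveolar identity, while SOX2 marks the dorsal side and the conducting airways and SOX9 the branching distal tips. FOXA factors are pioneer factors that bind closed chromatin throughout the endoderm, GATA6 acts beside them in gut and lung epithelium, and TP63 is the defining factor of basal and squamous cells. Many lung adenocarcinomas keep NKX2-1, and those that lose it can take on gastric or intestinal features.

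FOXA1, FOXA2, SOX2 and TP63 were lower in the SMARCA4 knockout tumours, and FOXA3, GATA6 and SOX9 did not pass the test. No member was higher. TP63 had the largest difference among the members, with a knockout mean 5.07-fold below the parental mean, followed by FOXA2 (3.71-fold), SOX2 (2.74-fold) and FOXA1 (1.75-fold). NKX2-1 had no count in any of the 8 libraries. Thus 4 of the 7 tested members were called lower, beside 14.1% of all genes tested, and in the same 4 the groups did not overlap, beside 29.3%. The median log2 fold change was -0.81 over the 7 members and 0.00 over all genes tested. Each of the 7 had at least 16 counts in every library, so none entered the test through 1 group alone. In bulk tumour RNA, fewer cells of a type and less RNA per cell cannot be told apart.

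**Figure D1:**
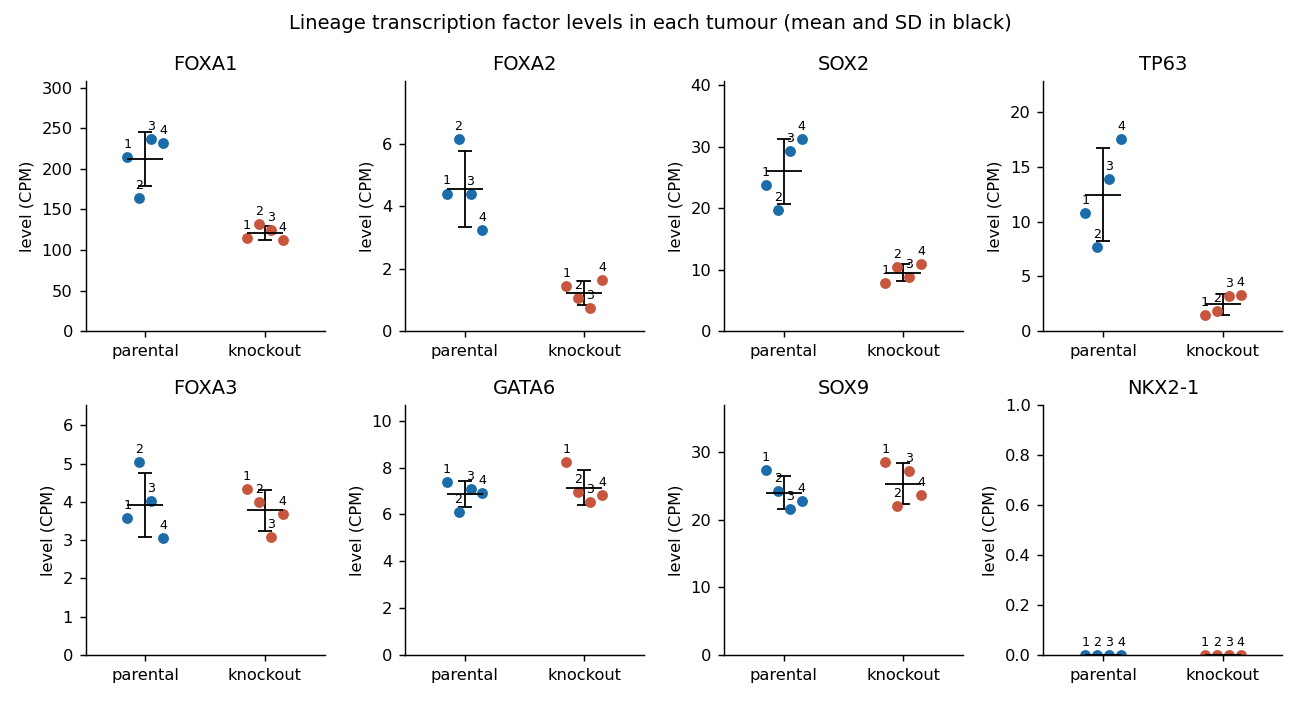
Level of each of the 8 transcription factors in CPM (vertical axes, each from 0) in 4 parental tumours (blue) and 4 SMARCA4 knockout tumours (red), numbered by replicate, with black bars for mean and SD. FOXA1, FOXA2, SOX2 and TP63 have no overlap between the groups, FOXA3, GATA6 and SOX9 overlap, and NKX2-1 lies at 0 in all 8 tumours.

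Promoter windows are printed for FOXA1, SOX2 and TP63, the 3 members that fell and had an entry in the RefSeq promoter table (GRCh38.p14), so that the starts of genes that moved together can be compared. GATA6 is printed beside them as a member that was not called. These 4 windows and the motifs were chosen after the values were seen. Each window runs from 250 bases before the RefSeq start to 50 bases from it, on the gene's strand, 5′ to 3′. Capitals mark matches on either strand to short motifs. The forkhead motif searched was TGTTTNC, and the SOX factors had a first form, ACAAAG, and a further form, ACAATG. For NKX2 factors the letters were CAAGTG, for GATA factors AGATAA, for the AP-1 factors TGANTCA, and for the CCAAT box the letters of its name. The windows are FOXA1 at chr14:37595200-37595499 (minus strand), SOX2 at chr3:181711675-181711974 (plus), TP63 at chr3:189631139-189631438 (plus) and GATA6 at chr18:22169339-22169638 (plus).
FOXA1: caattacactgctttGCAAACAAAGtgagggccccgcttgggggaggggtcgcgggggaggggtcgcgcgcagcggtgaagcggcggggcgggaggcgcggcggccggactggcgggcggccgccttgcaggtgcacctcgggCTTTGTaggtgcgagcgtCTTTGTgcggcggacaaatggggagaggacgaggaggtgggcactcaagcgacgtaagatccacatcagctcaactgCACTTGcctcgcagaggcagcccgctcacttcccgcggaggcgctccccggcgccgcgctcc
SOX2: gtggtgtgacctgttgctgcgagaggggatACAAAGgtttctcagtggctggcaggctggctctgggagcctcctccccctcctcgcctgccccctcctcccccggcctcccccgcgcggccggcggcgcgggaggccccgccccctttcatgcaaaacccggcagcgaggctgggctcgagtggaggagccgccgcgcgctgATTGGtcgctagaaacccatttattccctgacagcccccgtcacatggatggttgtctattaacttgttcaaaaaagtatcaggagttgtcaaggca
TP63: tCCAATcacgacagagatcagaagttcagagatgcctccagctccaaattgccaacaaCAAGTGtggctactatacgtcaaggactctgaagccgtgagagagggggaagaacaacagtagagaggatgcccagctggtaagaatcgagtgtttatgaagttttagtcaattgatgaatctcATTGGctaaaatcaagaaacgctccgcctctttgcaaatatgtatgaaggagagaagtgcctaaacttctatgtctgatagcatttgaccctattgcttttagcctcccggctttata
GATA6: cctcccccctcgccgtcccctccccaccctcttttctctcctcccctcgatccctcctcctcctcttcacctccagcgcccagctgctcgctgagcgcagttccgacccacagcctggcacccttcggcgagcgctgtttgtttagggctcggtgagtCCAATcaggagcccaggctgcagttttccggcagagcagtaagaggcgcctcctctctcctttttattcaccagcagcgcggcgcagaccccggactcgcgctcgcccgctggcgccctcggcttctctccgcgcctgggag

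No motif matched in the windows of all 3 genes that fell, and the windows differ widely in base composition. FOXA1 has 1 forkhead match, 3 matches to ACAAAG and 1 to CAAGTG, and its forkhead match overlaps the first ACAAAG match. SOX2 has 1 match to ACAAAG and 1 CCAAT box. TP63 has 1 match to CAAGTG and 2 CCAAT boxes, and GATA6 has 1 CCAAT box. The shares of all 35116 promoter windows of the same length with a match were 18% for the forkhead letters, 16.1% for ACAAAG, 10.8% for ACAATG, 11.5% for CAAGTG, 10.3% for AGATAA, 7.71% for TGANTCA and 34.6% for CCAAT. The FOXA1 window is 69.3% G and C with 34 CpG dinucleotides, and the GATA6 window is 66.7% with 25. SOX2 has 63.3% and 20 CpG, whereas TP63 has 43.7% and 7, against medians of 58.7% and 14 over all windows. A match describes the letters in the window and is no evidence of binding. FOXA2 and SOX9 are named without a window.

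NKX2-1 (14:36516392-36521149, minus strand, GENCODE 29) encodes the homeodomain factor that drives surfactant and other alveolar genes. It counted 0 in all 8 libraries, which allows at most 0.0176 CPM over the libraries together, if 3 counts are taken as the limit of a count of 0. For a single library that limit lies between 0.128 and 0.155 CPM. These limits cover counting error only. The antisense gene NKX2-1-AS1 and the adjacent SFTA3 were also at 0 in all 8 libraries. NKX2-1 and NKX2-1-AS1 share 402 exon bases, of 3165 in NKX2-1. Strandedness of the counting is not given, so reads of the shared bases may have been counted for neither gene. No difference between the groups in NKX2-1 was detectable at this depth.

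FOXA1 (14:37589984-37596059, minus strand) encodes the most abundant of the 3 FOXA pioneer factors in these tumours. Its levels were 214.1, 164.1, 237 and 231.6 CPM in parental tumours 1 to 4, from 4135, 3361, 5307 and 5448 counts. Knockout tumours 1 to 4 had 114.8, 131.5, 125.2 and 112.4 CPM, from 2457, 2698, 2682 and 2408 counts. All 4 knockout tumours lay below all 4 parental tumours, with parental tumour 2 the nearest to them. FOXA1 fell by 0.81 on the log2 scale (SE 0.118, edgeR quasi-likelihood adjusted p = 0.000434). A knockout mean of 57.1% of the parental mean remained, 121 ± 8.96 against 211.7 ± 33.2 CPM (SD, n = 4 each). Its exons share 16 bases with TTC6 on the opposite strand, and TTC6 did not pass the test (log2 fold change -0.22, adjusted p = 0.454).

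FOXA2 (20:22581005-22585455, minus strand) acts with FOXA1 in endoderm and in lung epithelium. Parental tumours 1 to 4 had 4.40, 6.15, 4.38 and 3.23 CPM, from 85, 126, 98 and 76 counts. In knockout tumours 1 to 4 the FOXA2 level was 1.45, 1.07, 0.747 and 1.63 CPM, from 31, 22, 16 and 35 counts. The groups stood apart, although the counts in the knockout are low and the spread within each group is wide in relative terms. FOXA2 fell by 1.88 on the log2 scale (SE 0.279, edgeR adjusted p = 0.000482), with means of 4.54 ± 1.21 and 1.23 ± 0.395 CPM (SD, n = 4 each). Parental tumour 2, the lowest of its group for FOXA1, was the highest for FOXA2.

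FOXA3 (19:45863989-45873797, plus strand), a paralogue known mainly from liver and gut, did not follow the other two. It had 3.57, 5.03, 4.02 and 3.06 CPM in parental tumours 1 to 4 (69, 103, 90 and 72 counts) and 4.35, 3.998, 3.08 and 3.69 CPM in knockout tumours 1 to 4 (93, 82, 66 and 79 counts). The knockout range lay within the parental range. The FOXA3 log2 fold change was -0.05 (SE 0.195, adjusted p = 0.874), with an approximate 95% interval of -0.43 to 0.33. Its fold change was positive without parental tumour 2 or without knockout tumour 3, and it has no direction here.

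Per kilobase of annotated exon, which allows levels of different genes to be compared, FOXA1 made up 93.5% ± 2.54 (SD, n = 4) of the summed FOXA1, FOXA2 and FOXA3 level in the parental group and 93.2% ± 1.33 (n = 4) in the knockout group (p = 0.886, exact permutation test, two-sided). The sum itself was 56.7 ± 7.63 CPM per kb in parental and 32.6 ± 2.09 in knockout tumours (n = 4 each, exact permutation p = 0.0286, the smallest that 4 against 4 allows). The FOXA2 share was 3.21% ± 1.35 in parental and 1.47% ± 0.545 in knockout, and the FOXA3 share was 3.27% ± 1.19 and 5.31% ± 0.860 (n = 4, exact permutation p = 0.0571 for each). Both minor shares missed the threshold, and their group ranges overlapped. FOXA2 and FOXA3 were at similar levels per kb in the parental tumours, while in the knockout FOXA3 at 1.72 CPM per kb lay above FOXA2 at 0.471 in every tumour.

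SOX2 (3:181711924-181714436, plus strand) is needed for the basal, secretory and ciliated lineages of the airway and for the oesophagus. Its levels were 23.8, 19.7, 29.3 and 31.3 CPM in parental tumours 1 to 4, from 460, 403, 655 and 736 counts. Knockout tumours 1 to 4 had 7.90, 10.48, 8.77 and 10.9 CPM, from 169, 215, 188 and 233 counts. The lowest parental tumour stood well above the highest knockout tumour. SOX2 fell by 1.45 on the log2 scale (SE 0.163, edgeR adjusted p = 7.17e-05), with 36.6% of the parental mean remaining. The gene lies within SOX2-OT, a long non-coding RNA gene on the same strand with which it shares no exon bases, and which had 17 pooled counts in parental and 18 in knockout tumours.

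SOX9 (17:72121020-72126420, plus strand), the factor of distal lung tips and of many progenitor epithelia, measured 27.3, 24.3, 21.6 and 22.8 CPM in parental tumours 1 to 4 (527, 497, 484 and 535 counts). Knockout tumours 1 to 4 had 28.5, 22.04, 27.2 and 23.6 CPM (609, 452, 583 and 506 counts). The groups overlapped, and the log2 fold change of 0.08 (SE 0.113, adjusted p = 0.648) had an approximate 95% interval of -0.14 to 0.30. With SOX2 lower, the order of the pair per kb differed between the groups. SOX2 was 10.4 ± 2.097 CPM per kb and SOX9 6.09 ± 0.625 in parental tumours, against 3.78 ± 0.561 and 6.44 ± 0.763 in the knockout (SD, n = 4). SOX2 made up 62.5% ± 6.55 of their sum in the parental group and 37.1% ± 6.14 in the knockout group (p = 0.0286, exact permutation test, two-sided). Every parental tumour had more SOX2 than SOX9 per kb and every knockout tumour more SOX9 than SOX2. The parental order rests on the exon lengths used, 2513 bases for SOX2 and 3935 for SOX9. In CPM, SOX9 lay above SOX2 in parental tumours 1 (27.3 against 23.8) and 2 (24.3 against 19.7), and below it in tumours 3 and 4. The knockout order was the same in CPM.

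TP63 (3:189631416-189897279, plus strand) encodes p63, which keeps basal cells in their progenitor state and is the usual marker of squamous tumours. Parental tumours 1 to 4 had 10.8, 7.67, 13.9 and 17.6 CPM, from 208, 157, 311 and 413 counts. In knockout tumours 1 to 4 the level of TP63 was 1.495, 1.80, 3.22 and 3.31 CPM, from 32, 37, 69 and 71 counts. The highest knockout tumour stood well below the lowest parental tumour, and in both groups tumours 3 and 4 were the highest. TP63 fell by 2.34 on the log2 scale (SE 0.308, edgeR adjusted p = 0.000213), from 12.5 ± 4.24 to 2.46 ± 0.943 CPM (SD, n = 4 each). Gene counts do not separate transcripts of its upstream start, which the printed window covers, from those of its internal start.

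GATA6 (18:22169443-22202528, plus strand), a zinc finger factor of endoderm, was at 7.41, 6.10, 7.10 and 6.93 CPM in parental tumours 1 to 4 (143, 125, 159 and 163 counts). Knockout tumours 1 to 4 had 8.22, 6.97, 6.53 and 6.82 CPM (176, 143, 140 and 146 counts). The ranges overlapped, and the log2 fold change was 0.05 (SE 0.133, adjusted p = 0.814, approximate 95% interval -0.21 to 0.31). Its sign turned without parental tumour 2 or without knockout tumour 1. The divergent antisense gene GATA6-AS1, which shares 240 exon bases with GATA6, had 22 pooled counts in parental and 40 in knockout tumours, a ratio of 1.84 (exact 95% interval 1.07 to 3.25, counting error only). Strandedness of the counting is not given in the sources used here, so reads of the shared bases cannot be assigned to 1 of the pair.

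Ranked per kb, FOXA1 was the highest member in both groups, at 53.2 CPM per kb in parental and 30.4 in knockout tumours, and its range lay above that of the next gene. SOX2 and then SOX9 followed in the parental tumours, and their ranges did not overlap. FOXA3 (1.79), GATA6 (1.75), FOXA2 (1.74) and TP63 (1.67 CPM per kb) formed a group in the parental tumours whose neighbours did not differ beyond their spread. The length used is that of all annotated exons of a gene together, 7454 bases for TP63, and the place of TP63 in either group rests on it. So does the place of SOX2 above SOX9 in every parental tumour. Before division by length, the parental mean was 12.5 CPM for TP63 and 6.89 for GATA6. In the knockout this group split. GATA6 (1.81) and FOXA3 (1.72) overlapped with each other and lay above FOXA2 (0.471) and TP63 (0.330 CPM per kb), which overlapped in turn.

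Within the parental group SOX2 and TP63 placed the 4 tumours in the same order, with tumour 2 lowest, then 1, 3 and 4. FOXA1 also had tumour 2 lowest and tumour 1 next, but tumour 3 above tumour 4. FOXA2 had the reverse of the SOX2 order. No such shared order of SOX2 and FOXA1 appeared among the knockout tumours, where FOXA1 was lowest in tumour 4 and SOX2 highest there. Parental tumour 2 also had the highest summed levels of fibroblast (610.7 CPM), leukocyte (74.3 CPM) and skeletal muscle markers (43.1 CPM) in its group. The marker sums of fibroblasts spanned 181.2 to 610.7 CPM in parental and 345 to 606.3 in knockout tumours, with 1 of 5 tested markers higher (LUM, at a log2 fold change of 5.00; 2 without parental tumour 2) and none lower. Leukocyte sums spanned 7.99 to 74.3 and 13.6 to 32.1 CPM, with none of 8 tested markers called (2 lower without parental tumour 4). For endothelial cells the sums were 7.51 to 18.5 and 9.11 to 15.5 CPM, with VWF lower (1 of 2 tested, or 3 lower with no filter), and for muscle 4.14 to 43.1 and 2.73 to 18.6 CPM, with MYOD1 at 0 throughout. MB was the 1 of 2 tested muscle markers that was lower, a call lost when tumour 2, 3 or 4 of either group was left out, and also in 3 alternatives with all 8 tumours (upper-quartile scaling, the CPM filter and the replicate block, with an adjusted p of up to 0.0759). The part of these markers in the members' differences was not tested, nor was their origin in host or tumour cells. Without parental tumour 2 the falls were 0.91 for FOXA1, 1.70 for FOXA2, 1.57 for SOX2 and 2.52 for TP63 on the log2 scale, and all 4 calls held. The differences of FOXA1, SOX2 and TP63 were larger without that tumour and that of FOXA2 smaller. Mitochondrial genes took 4.74% to 9.47% of parental and 8.57% to 10.9% of knockout gene counts, and the 4 calls also held with those genes left out.

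Over the other genes of the lineage and family lists, parental tumour 2 held no such uniform place. It was the lowest parental tumour for 51 of 159 tested genes and the highest for 46. Of the 65 that were called lower, it was the lowest for 30 and the highest for 9, and over all genes called lower the shares were 37% and 21.8%. DNAH5, CLIC5 and SFTPD, like FOXA2, were highest in that tumour.

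**Figure D2:**
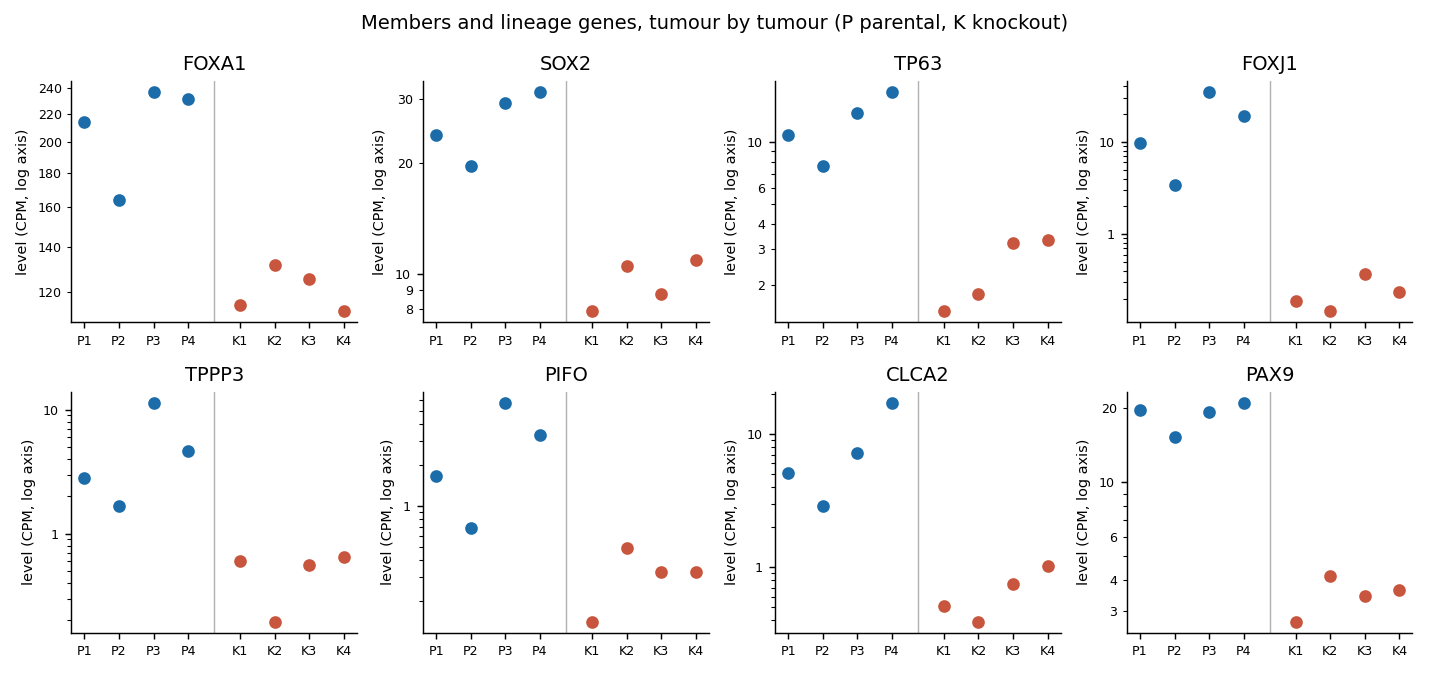
Level in CPM (log axes, 1 per gene) of FOXA1, SOX2 and TP63 and of 5 genes of the lineage lists, chosen after their values were seen, in each tumour, with parental tumours P1 to P4 in blue and knockout tumours K1 to K4 in red. Parental tumour 2 is the lowest parental tumour in these 8 genes, which were picked with that pattern in view, and none of them overlaps between the groups.

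For each tested member, the genes whose log2 CPM profile over the 8 tumours was most alike were listed as a description. For members that fell, such a profile includes the difference between groups, so the correlation left after removing the group means is given second. PLAT was the most similar to SOX2 (Pearson r = 0.997 over 8 tumours, 0.983 with group means removed), followed by TNFAIP8L1 (0.996 and 0.959) and KCNE4 (0.995 and 0.949). LXN headed the FOXA1 list (0.994 and 0.958), before LINC02188 (0.992 and 0.956) and HS6ST1 (0.992 and 0.942). For TP63 they were LINC01184 (0.994 and 0.956), ANKRD65 (0.993 and 0.949) and CEBPA (0.992 and 0.954). CEBPA, itself a lung epithelial transcription factor, had means of 22.1 ± 3.21 CPM (parental) and 12.1 ± 1.84 CPM (knockout; SD, n = 4 each).

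GGT5 (0.986 and 0.892), ABHD11 (0.981 and 0.847) and FAM3B (0.976 and 0.812) were the most like FOXA2. Among the members that were not called, FOXA3 was closest to GABARAP (0.986 and 0.987), GATA6 to SMIM26 (0.922 and 0.919) and SOX9 to ILK (0.955 and 0.960). These genes were picked from all tested genes whose log2 CPM averaged at least 1, on libraries that every gene shares. The picks depend on the measure. By Spearman's rank correlation, ties left more than 3 genes at or above the third highest value for every member but SOX9. They numbered 17 for FOXA1, 8 for FOXA2, 14 for FOXA3, 4 for GATA6, 19 for SOX2 and 15 for TP63. None of the 3 genes named for FOXA1 and none of those for GATA6 was in these sets. For FOXA2 and SOX9 1 of 3 was, and for FOXA3, SOX2 and TP63 2 of 3.

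The relatives of the members did not move as a block. The count of each family stands beside 13% higher and 14.1% lower over all genes tested, and some counts lie near those shares. Of 19 tested other FOX genes 5 were lower and 3 higher, with a median log2 fold change of -0.13. FOXJ1, the switch for motile cilia, had the largest fall of them, from 9.63, 3.37, 34.7 and 19.3 CPM in parental tumours 1 to 4 to 0.187, 0.146, 0.373 and 0.233 CPM in knockout tumours 1 to 4 (log2 fold change -6.12, SE 0.764, adjusted p = 0.000151). FOXC1, a forkhead factor of mesoderm, rose from 34.2 ± 4.98 to 88.6 ± 4.77 CPM (SD, n = 4, log2 fold change 1.37). Of 8 other SOX genes 4 were lower (SOX4, SOX6, SOX7 and SOX13) and 3 higher (SOX5, SOX12 and SOX15), with a median of -0.31, and the SOX12 call was lost without parental tumour 3 or knockout tumour 1 or 3. SOX5 was low in both groups, at 0.128 ± 0.0832 CPM in parental and 1.77 ± 0.695 in knockout tumours.

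GATA4 and GATA5, the nearest relatives of GATA6, were at 0 in all 8 libraries. Of 6 other tested GATA-type genes 3 were lower (TRPS1, GATA2 and GATAD2A) and none higher (median -0.44). TRPS1, a GATA-type repressor, had the largest fall (log2 fold change -1.33, SE 0.159, adjusted p = 0.000107). GATAD2A changed by only -0.33, and the GATA2 call was lost in 2 of the 8 fits that left out 1 tumour (edgeR adjusted p up to 0.0601). TP73, a relative of TP63 that acts in multiciliated cells, fell with TP63, from 2.67 ± 1.55 to 0.565 ± 0.0923 CPM (log2 fold change -2.23, adjusted p = 0.00141). PAX9, a foregut factor whose start lies 136 kb from that of NKX2-1, had counts in every library, unlike NKX2-1. PAX9 levels were 19.8, 15.3, 19.3 and 21.1 CPM in parental tumours 1 to 4 and 2.71, 4.14, 3.45 and 3.64 CPM in knockout tumours 1 to 4 (log2 fold change -2.44, SE 0.159, adjusted p = 1.82e-06).

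**Figure D3:**
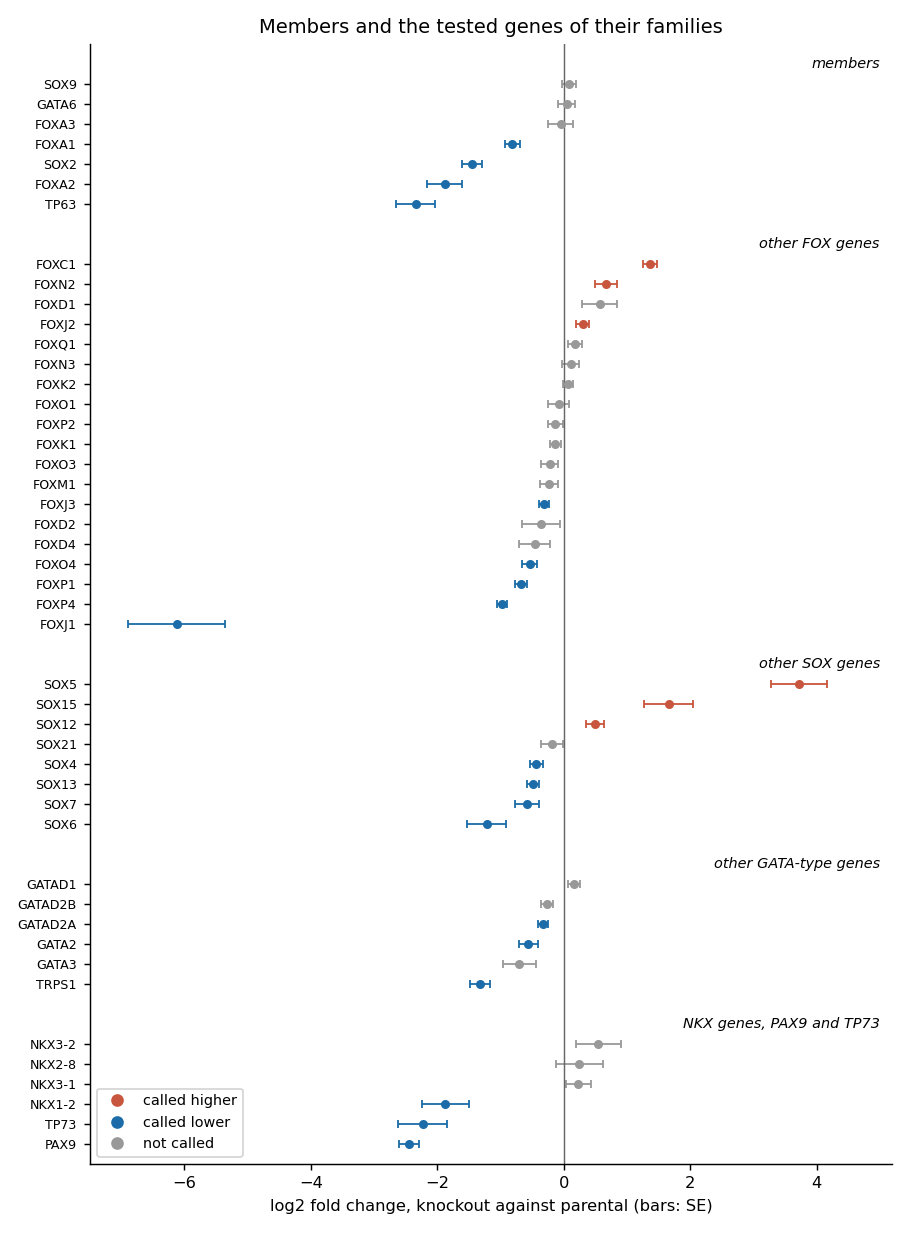
Log2 fold change of knockout against parental (horizontal axis, bars are SE) for the 7 tested members and tested genes of their families. FOXA1, SOX2, FOXA2 and TP63 lie left of 0, SOX9, GATA6 and FOXA3 lie near 0, and the families hold genes on both sides, with FOXJ1 at -6.12 the lowest.

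Few genes near FOXA1, FOXA2 or TP63 were tested. Within 500 kb of each member's start, a window chosen after the values were seen, 4 tested genes lay near FOXA1, 1 near FOXA2 and 1 near TP63. None of these was called, beside 27% of all genes tested, and so few genes cannot show a difference from that share. Near SOX2 and SOX9 no other gene was tested. FOXA3, in a gene-dense region, had 32 tested neighbours, of which 11 were higher and none lower, while FOXA3 itself was not called. Over all genes tested, 13% were called higher and 14.1% lower. GATA6 had 2, of which ABHD3 was higher (log2 fold change 0.68, adjusted p = 0.000989).

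Genes that mark the cell types these factors specify were read from lists. For this and the following lists, the shares over all genes tested were 13% higher and 14.1% lower, with a median log2 fold change of 0.00. Airway lists held mostly falls. Among 10 tested ciliated cell genes 7 were lower and none higher (median log2 fold change -1.06), with TPPP3 at -3.33 (adjusted p = 0.00172), PIFO at -3.15 (0.00313) and the dynein heavy chain DNAH5 at -1.73 (0.000287). Among 11 tested club and secretory genes 8 were lower and 1 higher (median -1.06). MUC5B, the most abundant of them, was not called (3272 ± 2060 CPM in parental and 3070 ± 371 in knockout tumours, log2 fold change -0.09, edgeR adjusted p = 0.862). SLPI was not called either (-0.06, adjusted p = 0.672). The list sums overlapped, at 4923 to 10438 CPM in parental and 4151 to 5818 in knockout tumours. WFDC2 fell from 48.9 ± 22.5 to 0.190 ± 0.120 CPM and the airway secretory protein gene BPIFA1 from 45.5 ± 28.3 to 2.34 ± 1.84 CPM (SD, n = 4). The lower club and secretory calls numbered 5 without knockout tumour 1 or 4, and SCGB3A2 was the single higher call. No higher call remained without parental tumour 1, 3 or 4 or knockout tumour 1, 2 or 4, and there were 2 without parental tumour 2. SCGB1A1, the defining club cell gene, had 2 counts in all parental libraries together and none in the knockout.

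Basal and squamous genes were more often higher than lower, while TP63 fell. Of 13 tested, 7 were higher and 3 lower (median 0.39). KRT14 measured 0.453 ± 0.255 CPM in parental tumours and 8.13, 5.02, 8.68 and 37.4 CPM in knockout tumours 1 to 4 (log2 fold change 5.01, 3.99 without knockout tumour 4), and KRT15, KRT16, DSG3 and TRIM29 were higher too. CLCA2 was lower, from 8.08 ± 6.29 to 0.669 ± 0.281 CPM (log2 fold change -3.58, adjusted p = 0.000592), as were S100A2 (-1.93, adjusted p = 0.000743) and KRT6B (-0.86). KRT5 had 21 pooled counts in parental tumours and 337 in knockout tumours, of which 334 were in knockout tumour 4.

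Alveolar genes were low or went both ways in these tumours, in which NKX2-1 had no count. SFTPC and SFTPA1 were at 0 in all 8 libraries, and SFTPB had 17 pooled counts in parental and 19 in knockout tumours. SFTPA2, below the filter, had 8, 12, 31 and 18 counts in parental tumours 1 to 4 and 1, 0, 2 and 1 in knockout tumours 1 to 4, with no overlap between the groups. NAPSA, an NKX2-1 target used to diagnose lung adenocarcinoma, was at 0.918 ± 0.222 CPM in parental and 1.08 ± 0.163 in knockout tumours (adjusted p = 0.555). SFTPC, SFTPA1, SFTPB and NAPSA were thus absent or low in both groups, but other genes of the alveolar type 2 list were not. ABCA3 was at 33.5 ± 7.55 CPM in parental and 25.1 ± 3.39 in knockout tumours (edgeR adjusted p = 0.0812). Means in the same order were 57.4 and 25.5 CPM for SLC34A2 and 118.9 and 235.4 CPM for LPCAT1. Of 7 tested alveolar type 2 genes 2 were higher (SFTPD at 1.49 and LPCAT1 at 0.99) and 2 lower (SLC34A2 at -1.17 and MFSD2A at -0.68), with a median of 0.18 that turned to -0.07 without knockout tumour 3 and to -0.09 among genes with a CPM of at least 1 in 4 libraries. With no filter on low counts the lower calls of this list numbered 4. Of 10 alveolar type 1 genes 3 were higher and 3 lower, with a median of 0.07.

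Genes of gastric, intestinal and hepatic endoderm, with FOXA3 and GATA6 as known regulators, went both ways. Of 13 tested, 5 were higher and 4 lower, or 7 lower without parental tumour 4 or with no filter on low counts (median -0.17). HNF4A, the hepatic and intestinal nuclear receptor, rose from 0.932, 1.17, 1.39 and 0.978 CPM in parental tumours 1 to 4 to 2.52, 4.88, 2.29 and 2.94 CPM in knockout tumours 1 to 4 (log2 fold change 1.49, SE 0.281, adjusted p = 0.00234), and PDX1, ONECUT2 and FGB were higher too. TFF3 (-4.23), VIL1 (-4.17), CTSE (-2.15) and HNF4G (-0.71) were lower, and CDX1 and CDX2 were at 0 in all 8 libraries. Neuroendocrine genes were few, with 5 tested and SYP higher. SYP lost its call when tumour 1 or 4 of either group was left out and with the replicate block (adjusted p = 0.0649), and 2 genes of the list were higher without parental tumour 2 or knockout tumour 3.

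Other epithelial and lung transcription factors fell more often than they rose. Of 28 tested, 14 were lower and 1 higher (median -0.42). MYCN, which supports distal lung progenitors, fell from 9.73 ± 1.85 to 1.71 ± 0.260 CPM (log2 fold change -2.50, adjusted p = 5.1e-06), and GRHL2, a regulator of epithelial junctions, from 83.5 ± 5.49 to 45.3 ± 2.70 CPM (-0.88, adjusted p = 2.23e-05). Among 21 tested foregut signalling genes 8 were lower and 5 higher (median -0.08), although the higher calls numbered 2 to 3 without parental tumour 1, 3 or 4 or knockout tumour 1 or 3. GLI3, a transducer of Hedgehog signals, was at 2.52 ± 0.993 CPM in parental and 0.177 ± 0.103 in knockout tumours (log2 fold change -3.79, adjusted p = 0.000143). GLI2, a more abundant transducer of the same signals, went the other way, from 8.57 ± 2.42 to 17.4 ± 2.96 CPM (log2 fold change 1.03, adjusted p = 0.00288).

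**Figure D4:**
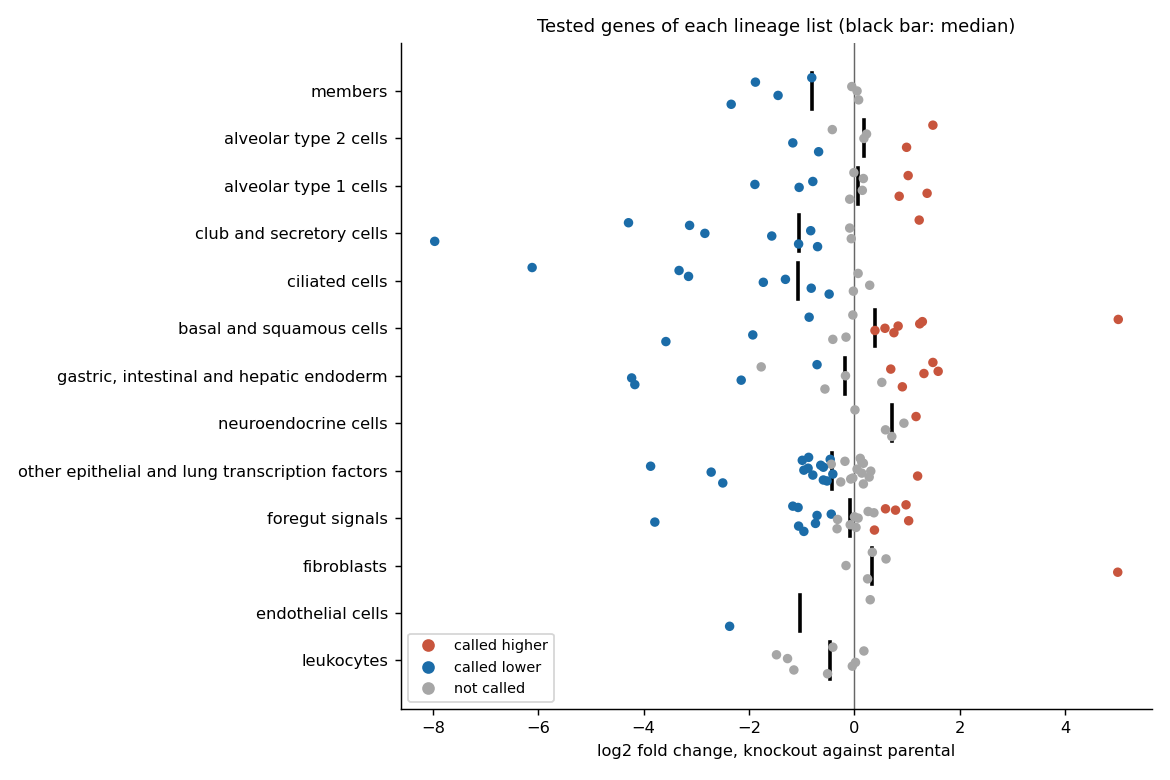
Log2 fold change of knockout against parental (horizontal axis) for the tested genes of the lineage lists and of the fibroblast, endothelial and leukocyte markers, 1 point per gene, with a black bar at each list's median. Members, ciliated, club and secretory lists have medians of -0.81, -1.06 and -1.06, and the basal and squamous list lies at 0.39.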

How the data were processed

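Per the labels, RNA came from an RNeasy kit and libraries were made with a NEBNext Ultra II kit. The values deposited by the authors are raw read counts per gene symbol, 1 file per tumour. The submitters' processing notes name TopHat2 2.1.1, HTSeq 0.11.0 and hg38. Annotation, strandedness and any removal of host reads are not given in the sources used here, so host reads and reads of overlapping genes may be counted.

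The 5 summary lines were left out. Of the records in the gene counts and summary lines together, 79.1% to 85.2% were assigned to a gene. The rest lacked a gene, were ambiguous or did not align uniquely. Reads that did not align at all are outside this share. Genes were kept by filterByExpr (minimum count 10, minimum total 15), scaled by TMM and compared with the quasi-likelihood F-test of edgeR 4.0.16 in R 4.3.3, with Benjamini-Hochberg adjustment over all 16219 genes. On simulated counts the test recovered 77.6% of genes changed by 1 and 99% of those changed by 2 on the log2 scale (98 genes each), with 10 false calls among 16030 genes in all. In the tumours a far larger part, 27% of genes tested, was called, so these rates need not hold for them. For single values an exact permutation test, two-sided, was used. Ratios of pooled counts have exact 95% intervals. Positions and exon lengths are from GENCODE 29 (GRCh38), matched by symbol.

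The rule for named genes took all members, SMARCA4, called list genes with the smallest p, defining markers whatever their result, and the 3 most similar genes per member. TTC6, ABHD3, GLI2, SFTPA2, ABCA3, SOX7, S100A2, KRT16, DSG3, TRIM29, SCGB3A2, HNF4G, PDX1, FGB, COL1A1, MUC5B and SLPI were named after their values were seen. So were the genes MYOD1, SFTPA1, CDX1, GATA4 and GATA5 listed at 0. Some genes that the rule names are not reported here. The members and lists were chosen with earlier results of these data known. Alternatives were DESeq2 1.42.0, limma-voom (limma 3.58.1), other scalings and filters, a replicate block and leaving out each tumour.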

Additional observations from a re-analysis of the deposited data

Results flagged for a closer look

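None of the 8 transcription factors had a tumour far from the others of its group. Among all named genes, members included, 12 of 190 sets of 4 tumours had 1 tumour whose gap to the nearest of the others exceeded Dixon's 95% critical value (4 tumours a set), which chance gives in about 1 in 20 sets.

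Knockout tumour 4 stood apart for 2 basal keratins. KRT14 was at 37.4 CPM there against 5.02 to 8.68 in the other knockout tumours, and KRT5 at 15.6 CPM (334 counts) against 0 to 0.0934. The same tumour was high for SYP, at 2.29 CPM against 1.03 to 1.22, and for SOX9-AS1, at 0.420 CPM (9 counts) against 0.0934 to 0.140. SOX9 itself was not apart in that tumour. ETV4 was low in knockout tumour 3, at 17.3 CPM against 18.3 to 18.4.

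In parental tumour 2, ONECUT2 was at 39.6 CPM against 28.4 to 29.1, and GATA6-AS1 at 0.0488 CPM (1 count) against 0.311 to 0.340. Parental tumour 4 had FOXP1 at 88.9 CPM against 74.1 to 74.8 and FOXO4 at 10.5 CPM against 13.1 to 13.5. The remaining values rest on 0 to 2 counts. SCGB1A1 had 0.0893 CPM (2 counts) in parental tumour 3 alone, and CASC17 had 0.0488 CPM (1 count) in parental tumour 2 and 0 in knockout tumour 3.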

How the results depend on the processing

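FOXA1, FOXA2, SOX2 and TP63 stayed called lower in all 10 alternatives that used 8 tumours and in all 8 that left out 1 tumour. With 8 tumours their log2 fold changes ranged from -0.83 to -0.77, -1.90 to -1.84, -1.48 to -1.41 and -2.37 to -2.30. Leaving out 1 tumour gave -0.91 to -0.75, -2.05 to -1.70, -1.57 to -1.36 and -2.52 to -2.14. FOXA3 (-0.16 to 0.09), GATA6 (-0.02 to 0.09) and SOX9 (0.02 to 0.14) were never called. FOXA3 turned to 0.09 without parental tumour 2 and 0.04 without knockout tumour 3, and GATA6 to -0.00 without parental tumour 2 and -0.02 without knockout tumour 1; the cause was not tested. Upper-quartile scaling raised the share of higher calls from 47.9% to 54.1%, with 4 members lower and none higher as before. Same-numbered tumours did not deviate together, with correlations of -0.28 to 0.12. The fit with the replicate block called 3871 genes against 4385, and the same 4 members. Counts were lowest for FOXA2, at 16 to 35 in the knockout, and the SE was 0.308 for TP63 and 0.279 for FOXA2.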
